A study of Homo sapiens with 16 samples.

Results

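The mRNAs of 2 families of splicing regulators, the heterogeneous nuclear ribonucleoproteins (hnRNPs) and the serine- and arginine-rich splicing factors (SRSFs), were followed through sucrose gradients of arsenite-treated and untreated human cells. Every gene in the table whose symbol begins with HNRNP, or with SRSF and a number, was taken, which gave 32 of 13148 genes, 20 in the hnRNP family and 12 in the SRSF family. The rule reads gene names and no measured value, though it was set with earlier results of these data known. The cells were 293S, a line of the HEK293 family derived from human embryonic kidney, grown as adherent monolayers. They received 1 mM sodium arsenite for 30 minutes or no treatment, and total RNA from 8 sucrose gradient fractions of each was sequenced. Each of the 16 libraries was the only one of its treatment and fraction. No group had a replicate, so no difference described here could be tested, and whether it exceeds the spread between libraries is not known.

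Arsenite is an oxidative stressor that blocks translation initiation in mammalian cells and makes polysomes run off, and a sucrose gradient sorts mRNAs by the size of the complexes that hold them, ribosomes included. hnRNP proteins coat nascent transcripts and often repress the use of splice sites, while SR proteins bind exonic enhancers through RNA recognition motifs and recruit the splicing machinery through domains rich in arginine and serine. Both families are abundant, ubiquitous, and known to control their own mRNAs, the SR genes through poison exons whose inclusion brings a premature stop codon.

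The deposited value for each gene and fraction is a share: the part of a gene's total in 1 gradient found in that fraction, with the 8 shares of a gradient summing to 1, printed here in percent. A share carries no expression level, so an mRNA can be followed between fractions but its abundance cannot be compared between cells or genes, and neither the depth of the libraries nor markers of the cell line can be read from it. Position is the mean fraction number weighted by the shares. The shift is position with arsenite minus position in control, and the relative shift is the shift minus the median shift of all 13148 genes, which was -1.46 fractions. That median depends on the scaling of the libraries: with median-of-ratios size factors, which divide each library by its typical gene, it was -0.23 fractions. These factors were taken over all 16 libraries together, so they level the typical gene across fractions and gradients by construction. The smaller median with them therefore cannot show whether the shift common to most genes is real. Whether fraction 1 is the top or the bottom of the gradient is stated neither in the labels nor in the table, so only fraction numbers are used.

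Both families lay at lower fraction numbers with arsenite than in control. All 20 hnRNP and all 12 SRSF mRNAs had a lower position with arsenite, as did 98.3% of all genes. With size factors 19 of 20 hnRNP and 10 of 12 SRSF mRNAs did, beside 58.8% of all genes. The share in fractions 5 to 8 was also lower with arsenite for all 32, beside 95.7% of all genes, and with size factors for 29 of 32, beside 55.3%. The median hnRNP mRNA had 21.6% of its total in fractions 5 to 8 with arsenite, against 80.5% in control. The median SRSF mRNA had 12.4% with arsenite and 59.4% in control, and the median over all genes was 16.4% with arsenite and 53.9% in control. These arsenite levels depend strongly on the scaling, and size factors bring the typical gene to like levels in both gradients by construction. With size factors the hnRNP median was 54.7% with arsenite and 81.0% in control, the SRSF median 38.7% with arsenite and 58.7% in control, and the median over all genes 47.7% with arsenite and 51.0% in control. As deposited, no member had 50% or more of its total in fractions 5 to 8 with arsenite, whereas 19 of 20 hnRNP and 9 of 12 SRSF mRNAs did in control. Of all 13148 genes, 308 did with arsenite and 7711 in control, so few genes of any kind did with arsenite. With size factors 13 hnRNP and 3 SRSF mRNAs did with arsenite, and 19 hnRNP and 8 SRSF mRNAs did in control. Of all 13148 genes, 5903 then did with arsenite and 6838 in control.

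The mRNAs were then compared relative to the median gene. The call moved required a relative shift of 0.5 fractions or more in either direction, and the same sign in all 8 recalculations that dropped 1 fraction number from the arsenite and control gradients together. By this rule 15 of 20 hnRNP mRNAs, 75%, and 4 of 12 SRSF mRNAs, 33.3%, moved lower, where the background over all genes was 24.0%. Moved higher were 1 of 20 hnRNP mRNAs and 0 of 12 SRSF mRNAs, where the background was 23.6%. The SRSF count of 4 is near its background, and the hnRNP count is well above it. The call reads the change from control and not the end point. By position the median hnRNP mRNA lay above 96.1% of all genes in control and still above 65.8% with arsenite. The part of the high control position in the hnRNP count was not tested. Both counts depend on single fractions: with fraction 7 left out of both gradients, 10 of 20 hnRNP and 7 of 12 SRSF mRNAs moved lower, beside 23.1% of all genes, so that the larger share was then in the SRSF family. With fraction 6 left out 14 hnRNP and 1 SRSF mRNAs did, beside 22.3%. With size factors 16 hnRNP and 5 SRSF mRNAs moved lower, beside 26.4% of all genes, and 0 hnRNP and 1 SRSF mRNAs moved higher, beside 28.7%.

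**Figure D1:**
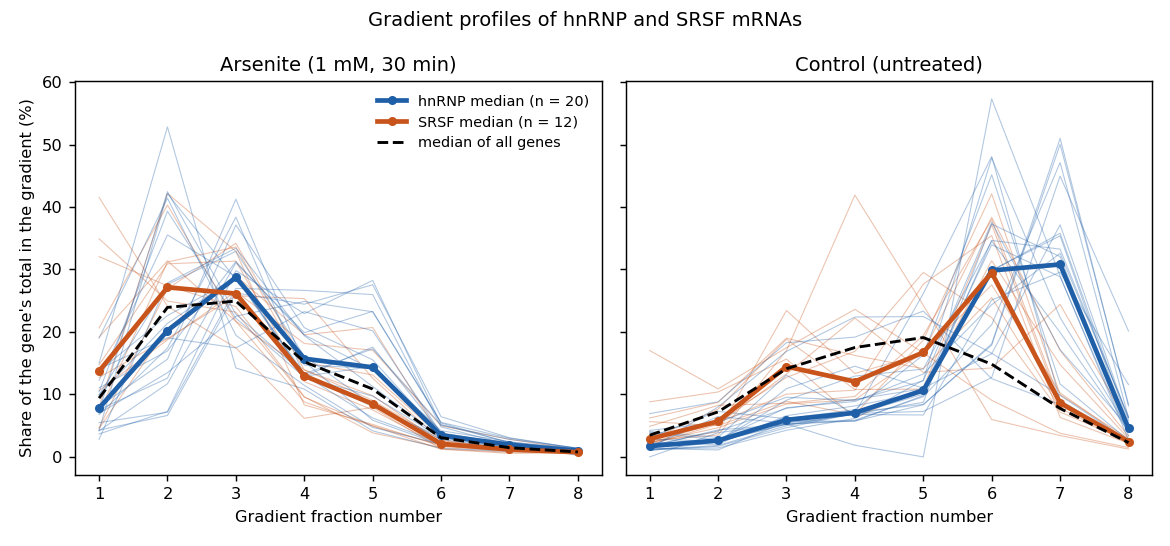
Share of each gene's total (%, y axis) in gradient fractions 1 to 8 (x axis) with arsenite (left) and in control (right). Thin lines are the 20 hnRNP (blue) and 12 SRSF (orange) mRNAs, thick lines the family medians and the dashed line the median of all 13148 genes. With arsenite the hnRNP median peaks in fraction 3 (28.7%) and the SRSF median in fraction 2 (27.1%). In control the hnRNP median is 30.8% at fraction 7, where the SRSF median is 8.64%.

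With arsenite the hnRNP medians were 7.79, 20.2, 28.7, 15.7, 14.3, 3.46, 1.94 and 0.999% in fractions 1 to 8. The SRSF medians were 13.7, 27.1, 26.1, 13.0, 8.49, 2.09, 1.19 and 0.743%. At the median the hnRNP mRNAs thus held more in fractions 4 to 8 and the SRSF mRNAs more in fractions 1 and 2, with the difference at fraction 3 changing sign with size factors (2.6 percentage points, and -0.23 with them). The gap was -5.93 percentage points at fraction 1 (-9.20 with size factors) and -6.93 at fraction 2 (-4.62 with size factors, -4.08 between means). At fraction 2 the lowest SRSF mRNA, at 18.7%, lay above 9 of 20 hnRNP mRNAs, where the median of all genes was 23.9%. The share of all genes below that SRSF mRNA was not counted, so the count cannot be judged against it. At fraction 7 the hnRNP median exceeded the SRSF median by 0.75 percentage points (4.01 with size factors).

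In control the hnRNP medians were 1.72, 2.63, 5.93, 7.06 and 10.6% in fractions 1 to 5, against 2.88, 5.68, 14.5, 12.1 and 16.7% for the SRSF mRNAs. At the median the hnRNP mRNAs held less in each of these fractions. At fraction 3 the lowest SRSF mRNA, at 8.47%, lay above 14 of 20 hnRNP mRNAs, where the median of all genes was 14.1%. The share of all genes below that SRSF mRNA was not counted, so the count cannot be judged against it. At fraction 6 the medians were 29.8% for hnRNP and 29.5% for SRSF mRNAs, both above the all-gene median of 14.8%. The sign of that small difference, 0.37 percentage points, turned to -3.14 with size factors and to -1.56 without the near copies HNRNPA1L2, HNRNPCL1 and SRSF8.

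The widest gap between the families over the 16 share columns stood at fraction 7 of the control gradient. There the hnRNP median was 30.8% (8.39 to 51.0% over the 20 mRNAs), the SRSF median 8.64% (3.42 to 24.4% over the 12), and the median of all genes 7.76%. The hnRNP median was 3.57 times the SRSF median, and 13 of 20 hnRNP mRNAs lay above the highest SRSF mRNA, SRSF11. The gap was 22.2 percentage points, and 19.1 to 23.8 under the alternatives run. In fraction 8 the hnRNP median was 4.56% and the SRSF median 2.45%, beside 2.28% for all genes, and 9 of 20 hnRNP mRNAs lay above the highest SRSF mRNA. That gap of 2.11 percentage points was 7.44 with size factors and 3.21 between means. For fractions 7 and 8 the share of all genes above the highest SRSF mRNA was not counted, so these counts cannot be judged against it.

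Position summed these profiles up. With arsenite the median position was 3.34 for hnRNP mRNAs (2.48 to 4.03), 2.80 for SRSF mRNAs (2.25 to 3.52) and 3.10 for all genes. In control it was 5.65 for hnRNP mRNAs (4.27 to 6.36), 4.81 for SRSF mRNAs (3.62 to 5.33) and 4.54 for all genes. The families were therefore 0.55 fractions apart with arsenite and 0.85 apart in control, and under the alternatives run these gaps were 0.40 to 0.76 with arsenite and 0.59 to 1.26 in control, always with hnRNP higher. With arsenite 5 of 20 hnRNP mRNAs lay above the highest SRSF mRNA, SRSF11, which itself lay above 76.0% of all genes. That count is near the share of all genes above SRSF11. In control 16 of 20 lay above the highest SRSF mRNA, SRSF4, which lay above 89.8% of all genes. By position the hnRNP mRNAs lay, at the median, above 65.8% of all genes with arsenite and above 96.1% in control. The SRSF mRNAs lay above 31.7% with arsenite and 66.7% in control.

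The median relative shift was -0.87 fractions for hnRNP and -0.48 for SRSF mRNAs, a difference of -0.39. This difference kept its sign under the alternatives run but not its size. It was -0.61 with size factors, -0.13 without fraction 7, -0.17 without fraction 3, -0.76 without fraction 5 and -0.82 without fraction 6. The positions in both gradients had a Spearman rho of 0.26 across the 20 hnRNP genes, 0.43 across the 12 SRSF genes and 0.33 across all genes, as descriptions of genes that share the same libraries.

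**Figure D2:**
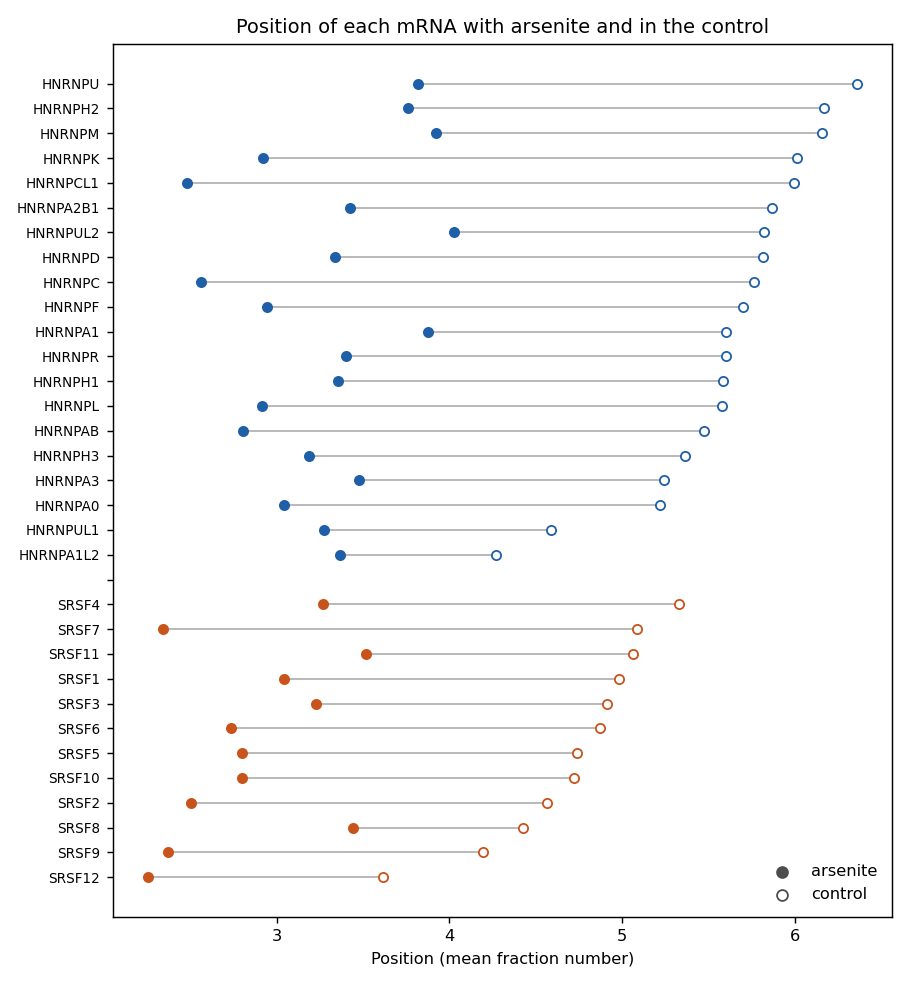
Position of each mRNA (mean fraction number, x axis) with arsenite (filled) and in control (open) for the 20 hnRNP genes (blue, upper block) and 12 SRSF genes (orange, lower block), sorted by position in control. Every filled point lies left of its open point, and 16 hnRNP mRNAs lie right of SRSF4, the SRSF mRNA with the highest control position (5.33). In control SRSF4 lay above 89.8% of all genes.

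Among the hnRNP members, the C proteins bind uridine tracts and measure the length of nascent transcripts in the core hnRNP particle. HNRNPCL1 and HNRNPC had the lowest relative shifts of all 32 mRNAs. HNRNPCL1 is an intronless gene on chromosome 1 that resembles the HNRNPC mRNA, whose gene is on chromosome 14. Their coding sequences matched at 830 of 876 aligned bases, 94.7%, in the GENCODE 29 transcripts. The first 60 coding bases are shown because they make plain how alike the pair is, with the 4 bases that differ in capitals:
HNRNPCL1: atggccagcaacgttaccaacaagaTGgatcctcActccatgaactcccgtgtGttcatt
HNRNPC: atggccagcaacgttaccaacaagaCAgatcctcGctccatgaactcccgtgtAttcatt
Reads from 1 copy can be counted for the other, and no source used here says how the authors counted such reads, so the HNRNPCL1 values are uncertain.

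HNRNPC had 19, 41.4, 19.5, 11.5, 4.72, 2.02, 1.22 and 0.696% of its total in fractions 1 to 8 with arsenite, against 1.65, 4.32, 5.16, 6.85, 8.75, 37.3, 32.1 and 3.94% in control. Fractions 1 and 2 together held most of its total with arsenite and fractions 6 and 7 most of it in control. Its position was 2.56 with arsenite and 5.76 in control, a relative shift of -1.75. HNRNPCL1 had 15, 52.8, 14.2, 10.8, 4.17, 1.36, 0.871 and 0.731% with arsenite, against 0, 3.87, 5.28, 1.86, 0, 57.3, 29 and 2.72% in control, where fractions 1 and 5 were listed at 0. It was the only member listed at 0 in any library. Its position was 2.48 with arsenite, the lowest of the hnRNP mRNAs, and 5.99 in control, a relative shift of -2.06. At 57.3% in control fraction 6, HNRNPCL1 also had the highest single share of any member.

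HNRNPK, which binds cytidine-rich RNA through KH domains, and HNRNPF, which binds runs of guanosines, followed. HNRNPK had 10.4, 39.3, 22.2, 12.8, 9.73, 3.08, 1.5 and 0.981% in fractions 1 to 8 with arsenite, against 2.14, 2.53, 5.28, 5.87, 9.64, 21.2, 47.1 and 6.26% in control. Its share was highest in fraction 2 with arsenite and in fraction 7 in control. Its position was 2.92 with arsenite and 6.02 in control, a relative shift of -1.64. HNRNPF had 7.32, 42.5, 22.8, 13.2, 8.08, 3.17, 1.91 and 1.01% with arsenite, against 1.61, 6.47, 5.4, 6.84, 10.0, 29.9, 35.4 and 4.37% in control. The profiles of HNRNPF and HNRNPK shared 95.3% of their area with arsenite and 85.9% in control, the area being the sum over fractions of the smaller share. The HNRNPF relative shift was -1.30. These 4 mRNAs and HNRNPL and HNRNPAB were the 6 hnRNP mRNAs with their highest arsenite share in fraction 2.

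HNRNPL, which binds CA repeats, had a relative shift of -1.21 and HNRNPAB, the gene named for hnRNP A/B, one of -1.22. The HNRNPAB profile in control differed from that of HNRNPL: HNRNPAB had 9.10% in fraction 7 and 26.1% in fraction 5, HNRNPL 28.8% in fraction 7 and 10.9% in fraction 5. With arsenite they were closer, at 35.5% for HNRNPAB and 42.1% for HNRNPL in fraction 2.

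The other F/H genes, which share the preference for guanosine runs, also moved lower. HNRNPH2 had a relative shift of -0.96, HNRNPH1 one of -0.77 and HNRNPH3 one of -0.72. HNRNPH2 had 2.23% in fraction 7 with arsenite, against 51.0% in control, the highest share of any member there. HNRNPH1 had 37.2% there in control and HNRNPH3 19.9%, so the 4 F/H genes spanned 19.9 to 51.0%. Without fraction 7, the relative shift was -0.41 for HNRNPH2 and -0.27 for HNRNPH1.

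HNRNPU, a nuclear matrix and chromatin-binding protein also called scaffold attachment factor A, had the highest position of any member in control. It had 4.18, 11.7, 31.1, 19.9, 23.3, 5.52, 2.99 and 1.36% with arsenite, against 1.12, 1.84, 4.99, 6.98, 7.27, 12.7, 45 and 20.1% in control. Its 20.1% in control fraction 8 was the highest fraction 8 share of the 32, and with arsenite fractions 3 to 5 held most of its total. Position was 3.82 with arsenite and 6.36 in control, where it lay above 99.9% of all genes, and the relative shift was -1.09. Its relatives HNRNPUL1 and HNRNPUL2 met neither call. HNRNPUL2 had 4.28, 6.63, 26.2, 24.4, 27.6, 6.43, 3.06 and 1.35% with arsenite, against 1.89, 2.04, 6.6, 8.16, 10.4, 29.8, 35.8 and 5.32% in control. It had the highest position of all members with arsenite, 4.03, against 5.82 in control, and its relative shift was -0.34 (-0.54 with size factors, where it moved lower). HNRNPUL1 had 2.79, 27.9, 33.4, 19.4, 11.3, 3.07, 1.52 and 0.675% with arsenite, against 1.3, 7.99, 16.9, 22.4, 22.5, 16.6, 9.85 and 2.52% in control. HNRNPUL1 thus had no peak at fraction 6 or 7 in control, where fractions 4 and 5 held the largest shares, and its relative shift was 0.14 (0.08 with size factors).

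The genes named A or AB, among them those of core particle proteins and well known splicing silencers, ranged from -1.22 for HNRNPAB to -0.27 for HNRNPA1. HNRNPA1L2, a near copy, was at 0.55. They are grouped here by name only, and without HNRNPAB the lowest was HNRNPA2B1. HNRNPA2B1, which also sorts RNAs for transport, had a relative shift of -0.99, and HNRNPA0, which binds AU-rich elements, one of -0.72 (-0.48 with size factors, where the call was lost). HNRNPA3 and HNRNPA1 met neither call. HNRNPA3 had 7.56, 12.6, 37.1, 20.7, 15.5, 3.47, 2.0 and 1.03% with arsenite, against 4.23, 5.54, 9.55, 9.05, 12.2, 37.6, 17.2 and 4.73% in control, and a relative shift of -0.31. HNRNPA1, the silencer protein known as an antagonist of SRSF1, had 5.48, 7.15, 27, 26.7, 26, 4.8, 1.92 and 1.05% with arsenite, against 4.06, 3.12, 13.1, 6.79, 6.71, 25.1, 29.6 and 11.6% in control. Its arsenite shares were nearly level over fractions 3 to 5, and its position was 3.88 with arsenite and 5.60 in control. The relative shift was -0.27, but -0.81 with size factors, where HNRNPA1 did move lower.

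HNRNPA1L2, an intronless gene that resembles the HNRNPA1 mRNA, was the 1 member that moved higher. It had 14.1, 19.1, 17.4, 23.3, 20.2, 3.76, 1.96 and 0.252% with arsenite, against 6.93, 8.82, 18.3, 19.2, 23.3, 12.5, 8.39 and 2.54% in control. Its position of 3.37 with arsenite was close to the family median, while its position of 4.27 in control was the lowest of the hnRNP mRNAs. The relative shift of 0.55 lay just past the threshold. It was 0.46 with size factors, and the call was also lost when fraction 5 or fraction 7 was left out. Its reads can be shared with HNRNPA1, and the values are uncertain for that reason.

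The remaining hnRNP mRNAs moved lower. HNRNPD, also known as AUF1, directs the decay of mRNAs with AU-rich elements and had a relative shift of -1.02. HNRNPM, which binds GU-rich RNA, had one of -0.78 (-1.37 with size factors). HNRNPR, a relative of SYNCRIP, had one of -0.75. HNRNPM stood out by its arsenite profile, with 28.2% in fraction 5 and 7.28% in fraction 2, where HNRNPD had 14.2% in fraction 5 and 15.6% in fraction 2. Without fraction 7 the HNRNPM relative shift was -0.26 and that of HNRNPR -0.42.

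**Figure D3:**
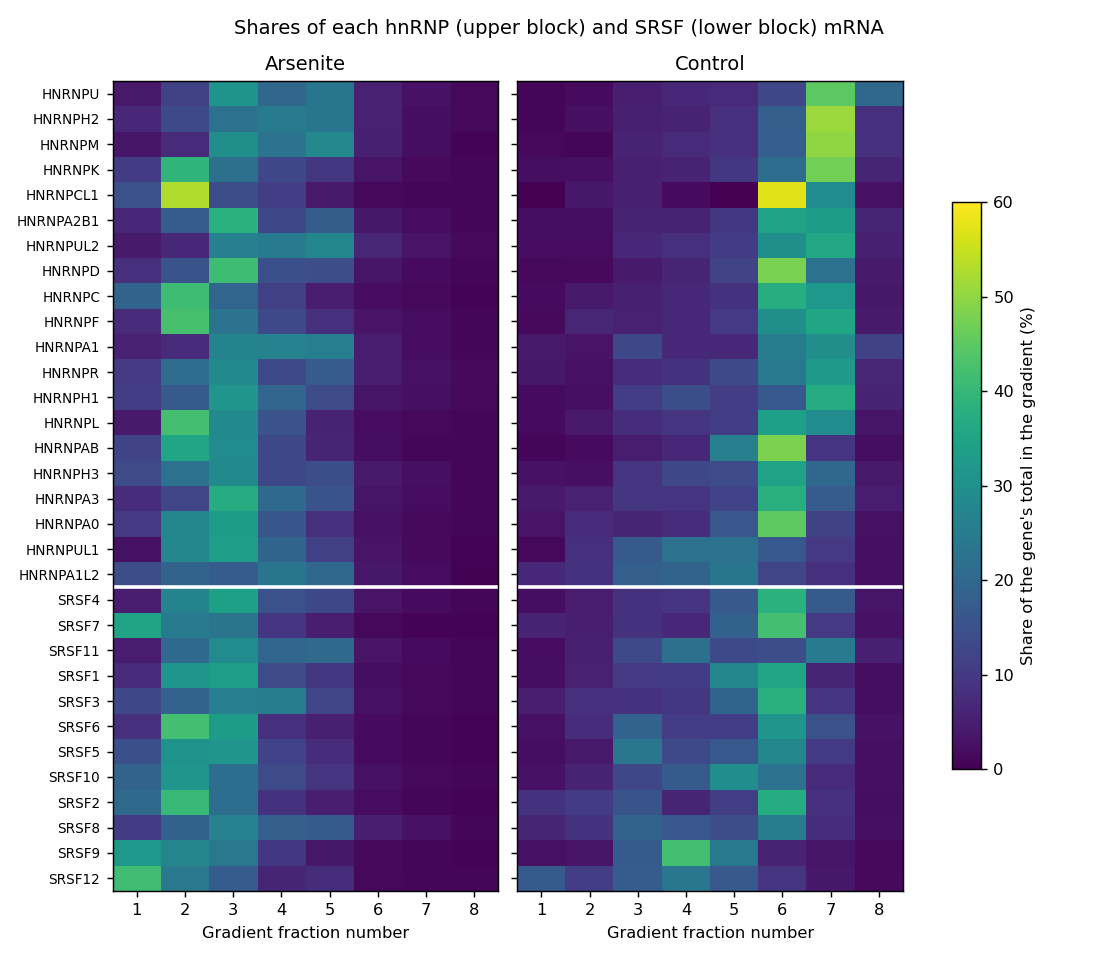
Share of each gene's total (%, colour) in fractions 1 to 8 (x axis) with arsenite (left) and in control (right), 1 row for each of the 20 hnRNP genes (upper block) and 12 SRSF genes (lower block), sorted by position in control. The brightest cells of fraction 1 with arsenite, up to 41.5% in SRSF12, belong to SRSF rows, and those of fraction 7 in control, up to 51.0% in HNRNPH2, to hnRNP rows.

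In the SRSF family, SRSF7, also called 9G8, an SR protein with a zinc knuckle that also serves mRNA export, had the lowest relative shift. SRSF7 had 34.9, 25, 23.2, 9.55, 4.96, 1.22, 0.562 and 0.661% in fractions 1 to 8 with arsenite, against 5.65, 4.99, 8.9, 6.76, 18.7, 42.1, 9.96 and 2.92% in control. Fraction 1 held the largest share with arsenite and fraction 6 in control. Its position was 2.34 with arsenite and 5.09 in control, and the relative shift of -1.29 was the only one past 1 fraction in this family.

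SRSF6, SRSF4 and SRSF2 also moved lower. SRSF6, or SRp55, had 7.97, 42.2, 32.9, 8.33, 5.19, 1.72, 1.04 and 0.68% with arsenite, against 2.75, 7.66, 18.8, 10.8, 10.8, 31.4, 14.8 and 2.95% in control, and a relative shift of -0.69. SRSF4, or SRp75, the longest classical SR protein, had 4.67, 26.9, 34.2, 15.1, 13.1, 3.24, 1.72 and 1.01% with arsenite, against 2.25, 4.67, 8.47, 9.13, 16.8, 38.4, 17 and 3.31% in control. Its position was 3.27 with arsenite and 5.33 in control, the highest of the SRSF mRNAs there, and its relative shift was -0.61. SRSF2, or SC35, the marker protein of nuclear speckles, had 20.6, 40.3, 21.7, 8.8, 4.93, 1.9, 1.06 and 0.657% with arsenite, against 8.82, 10.4, 15.7, 6.26, 11.1, 37.2, 8.32 and 2.29% in control, and a relative shift of -0.61. Neither of these last calls held with size factors, where the relative shift was -0.47 for SRSF4 and -0.34 for SRSF2. Without fraction 6, that of SRSF2 was -0.01.

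SRSF5, SRSF1 and SRSF10 stopped just short of the threshold, at -0.49 for SRSF5, -0.48 for SRSF1 and -0.47 for SRSF10. SRSF1, or SF2/ASF, is the founding SR protein, SRSF5 is SRp40, and SRSF10 is a repressor of splicing when it loses its phosphates during heat shock. With size factors SRSF5 was at -0.85 and SRSF10 at -0.57, and both moved lower, while SRSF1 was at -0.35. SRSF9, or SRp30c, was at -0.37 (-0.83 with size factors, where it was not called because its sign was not kept with each fraction left out). Its control profile had 1 peak of 41.9% in fraction 4, higher than any other member there, and 5.98% in fraction 6, the lowest of the 32.

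The 4 highest relative shifts of the family belonged to SRSF3, SRSF11, SRSF12 and SRSF8, and none was called. SRSF3, the smallest SR protein, had 12.7, 18.9, 25.8, 25.3, 12.6, 2.6, 1.23 and 0.794% with arsenite, against 4.89, 8.25, 8.58, 9.68, 19.4, 38, 8.96 and 2.19% in control, a relative shift of -0.23 (-0.12 with size factors). SRSF11 had 4.53, 20.6, 29, 19.5, 20.7, 3.1, 1.83 and 0.717% with arsenite, against 1.93, 5.24, 13.3, 22.2, 13.5, 14.2, 24.4 and 5.16% in control. It was the 1 SRSF mRNA with its largest control share in fraction 7, had the highest SRSF position with arsenite at 3.52, against 5.06 in control, and had a relative shift of -0.09, or -0.54 with size factors, where it moved lower.

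SRSF12, a relative of SRSF10, had the lowest position of any member in both gradients, 2.25 with arsenite and 3.62 in control. It had 41.5, 24.1, 17.4, 6.17, 7.93, 1.27, 0.737 and 0.768% with arsenite, against 17, 10.9, 17.5, 23.6, 16.7, 9.07, 3.78 and 1.48% in control. It already had 17.0% in fraction 1 without arsenite, the highest of the 32, and its relative shift was 0.09 (0.30 with size factors). SRSF8, a gene that resembles SRSF2, had 10.6, 18.7, 26.5, 18.1, 17.1, 4.98, 2.82 and 1.15% with arsenite, against 6.22, 8.73, 19, 16.2, 14.1, 25.5, 7.77 and 2.39% in control. Its relative shift of 0.47 stopped just short of the threshold and was 0.99 with size factors, where it moved higher. Reads of SRSF8 and SRSF2 can be shared, so the SRSF8 values are uncertain.

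**Figure D4:**
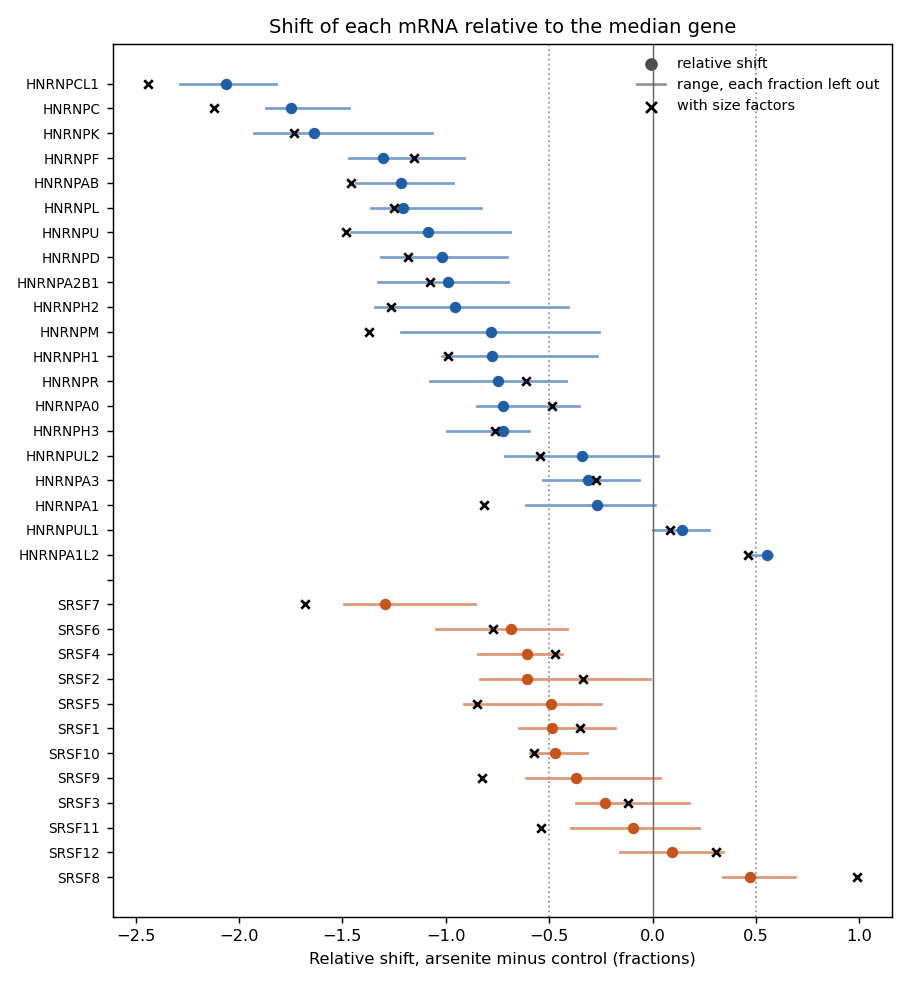
Relative shift of each mRNA (arsenite minus control, in fractions, x axis) for the 20 hnRNP genes (blue, upper block) and 12 SRSF genes (orange, lower block). Points are the values as reported, horizontal lines the range when each fraction number is left out in turn, crosses the values with size factors and dotted lines the threshold of 0.5 fractions on either side. 18 of 20 hnRNP and 10 of 12 SRSF mRNAs lie below 0, as do 6574 of all 13148 genes, because their median is subtracted. HNRNPCL1 is the lowest at -2.06.

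The fraction with the largest share of each mRNA was also counted, beside the same over all genes. With arsenite it was fraction 3 for 11 hnRNP mRNAs, fraction 2 for 6, fraction 4 for 2 and fraction 5 for 1. For SRSF mRNAs it was fraction 3 for 6 and fractions 1 and 2 for 3 each. Over all genes it was fraction 3 for 37.2%, fraction 2 for 34.5%, fraction 1 for 14.3%, fraction 5 for 8.43% and fraction 4 for 5.61%. In control the largest share was in fraction 6 for 9 hnRNP mRNAs, in fraction 7 for 9 and in fraction 5 for 2. Of the SRSF mRNAs 8 had it in fraction 6, 2 in fraction 4, 1 in fraction 5 and 1 in fraction 7. Over all genes 28.6% had it in fraction 5, 21.6% in fraction 6, 20.6% in fraction 4 and 14.9% in fraction 7. The SRSF mRNAs that peaked in fraction 1 with arsenite were SRSF7, SRSF9 and SRSF12, and no hnRNP mRNA peaked there.

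Profiles were compared by their shared area. Within the hnRNP family the median over 190 pairs was 78.0% with arsenite and 75.4% in control, and within the SRSF family, over 66 pairs, it was 78.8% with arsenite and 74.8% in control. Between the families, over 240 pairs, it was 76.5% with arsenite and 68.1% in control. The median between families was below both medians within a family, with the wider gap in control. The nearest profile over both gradients belonged to the same family for 15 of 20 hnRNP and 7 of 12 SRSF mRNAs, where 61.3% of the other members of an hnRNP gene and 35.5% of those of an SRSF gene are of its own family. HNRNPH2 and HNRNPM were nearest to each other at 87.6% with arsenite and 97.5% in control, HNRNPA1 and HNRNPUL2 at 95.3% with arsenite and 84.0% in control, and SRSF9 and SRSF12 at 86.2% with arsenite and 74.1% in control. SRSF8 and HNRNPA1L2, of different families, were also nearest to each other, at 88.0% with arsenite and 86.3% in control.

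Coding length differed between the families and moved with position. By 1 GENCODE 29 transcript a gene, the coding length was 1189.5 nt at the median for hnRNP genes (879 to 2568), 784.5 nt for SRSF genes (492 to 1482) and 1437 nt over the 12317 genes matched, 93.7% of the table. Whole mRNAs were of like length, 2724.5 nt for hnRNP and 2850 nt for SRSF genes at the median, beside 3303 nt. Over the 32 genes, coding length and position had a Spearman rho of 0.62 with arsenite and 0.57 in control, beside 0.67 with arsenite and 0.38 in control over all matched genes. Within the hnRNP family rho was 0.45 with arsenite and 0.24 in control, and within the SRSF family 0.50 with arsenite and 0.32 in control. For whole mRNA length, rho over the 32 genes was 0.35 with arsenite and 0.06 in control, beside 0.67 with arsenite and 0.23 in control over all matched genes. With the relative shift, rho for coding length was -0.18 over the 32 genes and 0.26 over all matched genes. For whole mRNA length it was 0.22 over the 32 genes and 0.39 over all matched genes. The genes share libraries, and no p is given.

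Coding ranges picked after the values were seen set the members beside other genes of like length. The other 4225 genes with a coding length of 987 to 1800 nt, the middle 50% of hnRNP genes, had a median position of 3.04 with arsenite and 4.54 in control, where the hnRNP medians were 3.34 with arsenite and 5.65 in control. They had 7.86% in control fraction 7 and a median relative shift of -0.01. The other 1016 genes in the middle range of SRSF genes, 701.25 to 892.5 nt, had a median position of 2.67 with arsenite and 4.40 in control, where the SRSF medians were 2.80 with arsenite and 4.81 in control. They had 5.46% in control fraction 7 and a median relative shift of -0.22. The family medians were taken over all members, including those with coding lengths outside these ranges. By these medians both families lay above the other genes of the ranges in control, hnRNP mRNAs by more than 1 fraction. The part of coding length in the family difference was not tested.

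**Figure D5:**
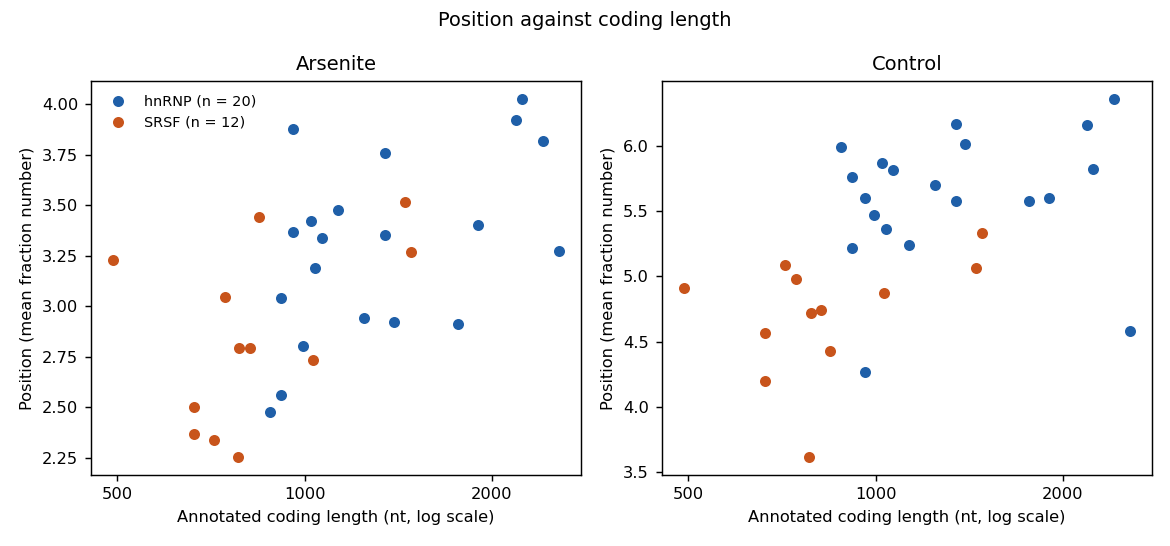
Position (mean fraction number, y axis) with arsenite (left) and in control (right) against annotated coding length (nt, log scale, x axis) for the 20 hnRNP (blue) and 12 SRSF (orange) genes. Where the coding lengths of the families overlap, between 879 and 1482 nt, the only SRSF mRNAs are SRSF6, SRSF11 and SRSF4. Most hnRNP mRNAs there lie above all of these in control, but HNRNPA0, HNRNPA3 and HNRNPA1L2 lie below SRSF4.

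Transcripts annotated in GENCODE 29 as targets of nonsense-mediated decay, which degrades mRNAs with a premature stop, were present for 11 of 20 hnRNP and 12 of 12 SRSF genes, and for 42.1% of all genes matched. HNRNPU had the most of the hnRNP genes, 9, and SRSF7 the most of the SRSF genes, 6. The table gives 1 profile per gene, so such forms cannot be told apart from the productive mRNA.

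The start of the mRNA was also read, since mRNAs of the translation machinery begin with a C followed by a run of pyrimidines (a TOP element), which places them under growth and stress control. Starts in the RefSeq promoter table (GRCh38.p14) were matched for 30 of 32 genes, without HNRNPA1 and SRSF2. A C at the start base followed directly by at least 4 bases that are each C or T, on the sense strand only, was found at 1 of 19 hnRNP genes (HNRNPA0) and 1 of 11 SRSF genes (SRSF9), 6.67% of the 30, where 5.14% of all genes in the RefSeq table and 7.42% of the genes matched to the gradient table had one. The starts are shown with the 10 bases before them and 20 from the start base on, the run of C and T from the start base in capitals, HNRNPA0 and SRSF9 as the starts with the run and HNRNPC and SRSF3 as starts without it:
HNRNPA0: gttcagcggcCTCTTTgtgtggtgcccaga
SRSF9: ctccgccgacCCCTTCgcttccgctccgcg
HNRNPC: cctcggcggcagaggagactcgggggccat
SRSF3: aggcggtggtCCgccatttcgtggacgccg
The windows are chr5:137754344-137754373 for HNRNPA0 (minus strand), chr12:120469729-120469758 for SRSF9 (minus strand), chr14:21269423-21269452 for HNRNPC (minus strand) and chr6:36594352-36594381 for SRSF3 (plus strand). The letters describe an annotated start and not the start used in these cells. The relative shifts of HNRNPA0 and SRSF9, -0.72 and -0.37, lay inside the range of their families.

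Proteins that work with these families were drawn from 4 lists. Of 17 genes for hnRNP-type proteins under other symbols, 8 moved lower and 1 higher, beside 24.0% lower and 23.6% higher over all genes. The median relative shift was -0.49, where that of all genes is 0 by construction. With size factors 12 moved lower and 1 higher, beside 26.4% lower and 28.7% higher over all genes, with a median of -0.76. PCBP1, a poly(C)-binding relative of HNRNPK, had -1.25, and PTBP1, the polypyrimidine tract-binding protein also called hnRNP I, had -1.14. At the other end were PTBP2, the neuronal PTB protein, at 0.53, which moved higher, PTBP3 at 0.38 and TARDBP, the gene of TDP-43, at -0.25 (0.01 with size factors). The 3 PTB genes were thus at both ends of the list, PTBP1 with a position of 2.79 with arsenite and 5.38 in control and PTBP2 with 3.23 with arsenite and 4.15 in control.

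Of 21 genes for SR-related proteins, which carry arginine- and serine-rich domains but are not classical SR proteins, 7 moved lower and 3 higher, with a median of -0.39. With size factors 13 moved lower and 0 higher, beside 26.4% lower and 28.7% higher over all genes, with a median of -0.77. U2AF1 had -1.56, TRA2B -1.23 and U2AF2 -1.16, the U2AF pair being the factor that marks the 3′ splice site and TRA2B an exon enhancer protein. The 3 that moved higher were SREK1 at 0.81, PNN at 0.56 and LUC7L3 at 0.54. With size factors these stood at 0.11 for SREK1, -0.06 for PNN and 0.24 for LUC7L3, and none of the 3 was called.

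Of 11 genes for kinases and phosphatases of SR proteins, 2 moved lower and 1 higher, with a median of -0.02, and with size factors 2 moved lower and 2 higher. PPP1CA, a catalytic subunit of protein phosphatase 1, had -1.17 (-1.97 with size factors), CLK3 -0.51 and PPP1CB -0.34 (-0.20 with size factors). CLK4 had 0.55 and moved higher (0.91 with size factors), while DYRK1A at 0.45 and CLK1 at 0.41 did not pass the threshold. With size factors DYRK1A was at 0.81, still uncalled, and CLK1 at 0.55, called higher. Of 23 other splicing regulators, 7 moved lower and 3 higher, with a median of -0.15. With size factors 8 moved lower and 4 higher, with a median of -0.38. PUF60 had -1.19, KHDRBS1, or Sam68, -1.17 and NONO, a paraspeckle protein, -1.12. The 3 that moved higher were MBNL2 at 1.33, MBNL3 at 0.66 and CELF2 at 0.53 (0.93 with size factors), all of them regulators of tissue-specific splicing. Set beside the background, where 24.0% moved lower and 23.6% higher, 47.1% of the list of hnRNP-type proteins moved lower, 33.3% of the SR-related list, 18.2% of the kinases and phosphatases and 30.4% of the other regulators. The background for the counts with size factors was 26.4% lower and 28.7% higher.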

How the data were processed

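Total RNA from 8 sucrose gradient fractions of arsenite-treated and of untreated 293S cells had been extracted with Trizol and made into libraries by the NSR method, per the labels. The deposited table gives, for each gene defined by RefSeq exons per the file headers, the fraction of its gradient total found in each of the 8 gradient fractions. The submitters' processing notes name build hg19. For alignment, read counting, strand use, library depth and the scaling between fractions, the sources used here give no details. The deposited score columns hold the authors' mean fraction number in each gradient and its difference, and recomputed positions matched them within 8.9e-15 fractions. Shares summed to 1 within 2.2e-15.

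Shares were printed in percent, and positions, shifts and calls were computed over all 13148 genes, with no filter on low values, in Python 3.11.15 with numpy 2.4.6 and pandas 2.3.3. A gene was called moved at a relative shift of 0.5 fractions or more in size with the same sign whichever 1 fraction number was dropped from the arsenite and control gradients. The calling step was checked on simulated profiles with planted shifts and counting noise only. That check cannot show how often calls arise from the spread between libraries, which is unknown here. With 1 library per group there were no tests, and because library depth is unknown no counting intervals are given. Shares are relative, so a fraction sequenced or recovered differently would move every gene. Median-of-ratios size factors, other thresholds, a pseudocount of 1 percentage point, the point of 50%, means for medians, and leaving out each fraction, genes with a 0 or the near copies were the alternatives. In each family the 4 highest and 4 lowest relative shifts and the extreme positions are given in full, and of each other list the 3 highest and 3 lowest, except 1 gene that is not reported here. The members and lists were chosen with earlier results of these data known. Lengths and transcript classes came from GENCODE 29 and start sites from RefSeq (GRCh38.p14), matched by symbol. Protein composition was planned but not analysed here.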

Additional observations from a re-analysis of the deposited data

How the results depend on the processing

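No paired analysis was possible because each treatment and fraction had 1 library. With no replicates, a value is taken as unmoved here when it stays within 1.5 times the reported one. The family gap in position, in both gradients, and the gap at control fraction 7 kept their sign and size by this measure under the alternatives run. The count of hnRNP mRNAs that moved lower was 10 to 18 with each fraction left out, beside 19.5 to 25.5% of all genes, and 8 at a threshold of 1 fraction, beside 9.33% of all genes. The count of SRSF mRNAs that moved lower was 1 to 7 with each fraction left out, 7 at a threshold of 0.25 fractions, beside 31.3% of all genes, and 1 at a threshold of 1 fraction. The count that moved higher in the hnRNP family was 0 to 1 with each fraction left out, beside 20.6 to 26.3% of all genes. It was 0 with size factors, beside 28.7%, and 0 at a threshold of 1 fraction, beside 6.69%. In the SRSF family it was 0 to 1 with each fraction left out, 1 with size factors, 1 at a threshold of 0.25 fractions, beside 34.8%, and 1 over genes with no 0, beside 23.0%. The difference in relative shift was -0.61 with size factors and -0.82 to -0.13 with each fraction left out. Of the 16 gaps by fraction, 7 moved past 1.5 times with size factors and 5 with means for medians. At fraction 7 with arsenite the gap was 4.01 percentage points with size factors. Reversed were the gap at fraction 3 with arsenite, -0.23 with size factors, and that at control fraction 6, -3.14 with size factors and -1.56 without the near copies. The cause of these changes was not tested. No called member's relative shift reversed with size factors or with the pseudocount. With each fraction left out none could, because the call itself requires the same sign there. Unknown depth and single libraries limit every value.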
